A study of Mus musculus with 3 samples.

Results

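The major histocompatibility locus of the mouse lies on chromosome 17 and holds the H2 genes, which encode the proteins that present peptides to T cells, together with many unrelated genes packed between them. Its core was taken as chr17:33800001-35500000 in the mm9 build, a window of 1.7 Mb defined to run from H2-K through the class II and class III regions to the start of H2-D and H2-Q, with 1 Mb on either side kept apart as flanks. The members were the bins of 10 kb in this window with at least 5 measured fragments. All 170 bins of the core had a value, out of 255936 bins in the genome, and they held 4456 of 6415372 fragments. Wild-type C57BL/6 mouse embryonic fibroblasts, connective tissue cells cultured from embryos, had been transduced with retroviruses that carried Dam fused to Lamin A, Dam fused to Lap2b, or Dam alone. Each of the 3 groups had 1 sample, so no difference had a replicate check and no test was made, and every SD is over bins of 1 library, which describes single bins and is not the error of a mean.

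DamID uses Dam, a bacterial enzyme that places a methyl group on the adenine of GATC, and reads out which GATC fragments became methylated. Fused to Lamin A, a filament protein of the nuclear lamina, or to Lap2b, a protein of the inner nuclear membrane, Dam marks DNA at the nuclear periphery. Unfused Dam marks accessible DNA anywhere in the nucleus. The value of a fragment is the log2 of fusion over a reference taken to be the Dam-only library, so values above 0 stand for more methylation by the fusion than by that reference. A lamina-associated domain (LAD) is a long stretch of such values, and the shortest LADs in the deposited lists measured 100194 bp (Dam-Lamin A) and 100031 bp (Dam-Lap2b). Class I genes such as H2-K1 and H2-D1 are expressed in most cells, class II genes such as H2-Ab1 and H2-Eb1 mainly in antigen-presenting cells, and the class III region carries complement, heat shock, tumour necrosis factor and many housekeeping genes.

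The files named no genes, and no gene annotation of mm9 was used. Genes were therefore tied to the fragment map by sequence. RefSeq promoter windows (250 bp before to 50 bp after a gene start, GRCm38.p6) with at least 3 GATC sites were searched for by the spacing of those sites among the fragments of the core and flanks. Of 47 such windows from chromosome 17, 8 matched at exactly 1 place (17%), against 20 of 1054 windows from other chromosomes (1.90%). The 8 matches stood in the same order as the genes do in the RefSeq table, and all 8 lay at 1 identical distance from their position in that table. The 5 in the core are printed here because every statement on gene intervals rests on them. Capitals mark the GATC sites, and the sequence runs 5′ to 3′ on the strand of the gene from the first site to the last one before the gene start.
Ring1: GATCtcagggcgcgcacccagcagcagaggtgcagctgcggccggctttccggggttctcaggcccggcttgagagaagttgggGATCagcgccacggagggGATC
Btnl4: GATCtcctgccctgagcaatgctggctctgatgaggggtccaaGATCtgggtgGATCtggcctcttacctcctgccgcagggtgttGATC
Btnl6: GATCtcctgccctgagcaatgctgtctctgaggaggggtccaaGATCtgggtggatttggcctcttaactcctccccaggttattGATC
Gpsm3: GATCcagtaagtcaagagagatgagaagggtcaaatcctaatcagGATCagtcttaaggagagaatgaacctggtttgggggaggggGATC
Gpank1: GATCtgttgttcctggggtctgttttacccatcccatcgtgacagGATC

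These stretches come from chr17:34024818-34024923 (Ring1, minus strand), chr17:34475973-34476062 (Btnl4, minus strand), chr17:34517388-34517476 (Btnl6, minus strand), chr17:34589686-34589776 (Gpsm3, plus strand) and chr17:35122773-35122821 (Gpank1, plus strand), all in GRCm38.p6. Ring1 encodes a Polycomb ubiquitin ligase, and Btnl4 and Btnl6 are butyrophilin-like genes whose promoters share most of their letters. In Ring1 the sites were 84 and 18 bp apart. In Btnl4 they were 43, 10 and 33 bp apart, and in Btnl6 43 and 42 bp. In Gpsm3 they were 45 and 42 bp apart, and in Gpank1 45 and 175 bp, the third site of Gpank1 lying past the gene start. In the mm9 map the first site of these stretches in chromosome order fell at 34161763 for Ring1, 34612918 for Btnl4, 34654333 for Btnl6, 34726631 for Gpsm3 and 35259718 for Gpank1. The other 3 matches, Gm9573, Mucl3 and Gm8909, fell at 35763750, 35780817 and 36305481 in the right flank.

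By the order of protein-coding genes in RefSeq, these anchors cut the core into 5 intervals. Before Ring1 stand 11 of the listed genes of the extended class II region, such as Daxx, Tapbp and Rgl2, and the class I gene H2-K1 as the direct neighbour of Ring1. By gene order H2-K1 thus comes last in this first interval of 362 kb, after those extended class II genes. The window was defined to start at H2-K, but this interval is not made up of H2-K alone. From Ring1 to Btnl4 stand 22 genes, among them all 9 listed protein-coding class II genes and the antigen processing genes Tap1, Tap2, Psmb8 and Psmb9, but also the other 5 listed extended class II genes (Ring1, H2-Ke6, Slc39a7, Rxrb and Col11a2). From Btnl4 to Gpsm3 stand 3 genes, Btnl4, Btnl6 and Notch4. From Gpsm3 to Gpank1 stand 43 genes of class III, including C4b of the complement system, the steroid hydroxylase gene Cyp21a1, the histone methyltransferase gene Ehmt2 and the heat shock genes Hspa1a, Hspa1b and Hspa1l. From Gpank1 on stand Bag6, Prrc2a, Tnf, Lta, Ltb and Ddx39b, followed by H2-D1 and H2-Q1. Listed class III genes thus stand in more than 1 interval. Among them, 6 housekeeping genes and 6 of the tumour necrosis factor and inflammatory genes stand from Gpank1 on, and Notch4 stands before Gpsm3. Single genes other than the anchors were placed by this order only, and no value was assigned to them.

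Genome-wide, the lists and the profiles went crosswise by label. Bins in the Dam-Lap2b list alone averaged 0.37 in the Dam-Lamin A profile and 0.04 in the Dam-Lap2b profile, and those found only in the Dam-Lamin A list averaged −0.04 and 0.46. Lists and profiles are therefore named by their labels throughout. Whether a label was exchanged was not tested, and if the profiles were exchanged, every difference between them given here would carry the other name.

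Neither list held a LAD anywhere in the core. The middle of 0 of 170 core bins lay in a LAD of either list, against 54.6% of bins in the genome for the Dam-Lamin A list and 50.5% for the Dam-Lap2b list. By length the core was in LADs for 0% in both lists, where the lists covered 54.1% (Dam-Lamin A) and 50.02% (Dam-Lap2b) of the genome. The core lay inside a gap between LADs of 3.13 Mb in the Dam-Lamin A list, from 33374839 to 36500604, and of 2.85 Mb in the Dam-Lap2b list, from 33650020 to 36500604. By length these were the 75th of 2138 gaps and the 91st of 2354 gaps, where the median gap measured 129 kb and 158 kb. Both gaps ended at the same base, 1001 kb past the core, while they began 425 kb and 150 kb before it.

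Both profiles were low throughout the core. The Dam-Lamin A profile averaged −0.99 ± 0.67 (SD, 170 bins), with a lowest bin of −2.66, a median of −1.05 and a highest of 0.97. The Dam-Lap2b profile averaged −1.55 ± 0.86, with a lowest bin of −3.42, a median of −1.60 and a highest of 1.23. All 17 blocks of 100 kb averaged below 0 in both profiles. Bins above 0 numbered 10 of 170 in the Dam-Lamin A profile (5.88%, exact Clopper-Pearson 95% interval 2.86 to 10.6%), against 55.2% of bins in the genome and 9.69% of bins outside both lists. They numbered 5 of 170 in the Dam-Lap2b profile (2.94%, 0.962 to 6.73%), against 59.3% in the genome and 11.7% outside both lists. These shares moved with the averaging. With bins of 5 kb, 10.9% of core bins were above 0 in the Dam-Lamin A profile, close to the 12.03% outside both lists, and with the median over fragments 9.41%, against 13.9%. In the Dam-Lap2b profile the share was 1.18% with bins of 20 kb, against 10.6% outside both lists, and 4.71% with the median, against 15.0%. Neighbouring bins are not independent, so these intervals cover the counting of bins alone. Bins below −1 in both profiles numbered 86 of 170 (50.6%), against 13.8% in the genome and 32.1% outside both lists. This share was not particular to the core. It was nearly the same in the right flank, at 49 of 100 bins. Outside both lists it was 38.8% on chromosome 17 and 40.0% on chromosome 11.

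**Figure D1:**
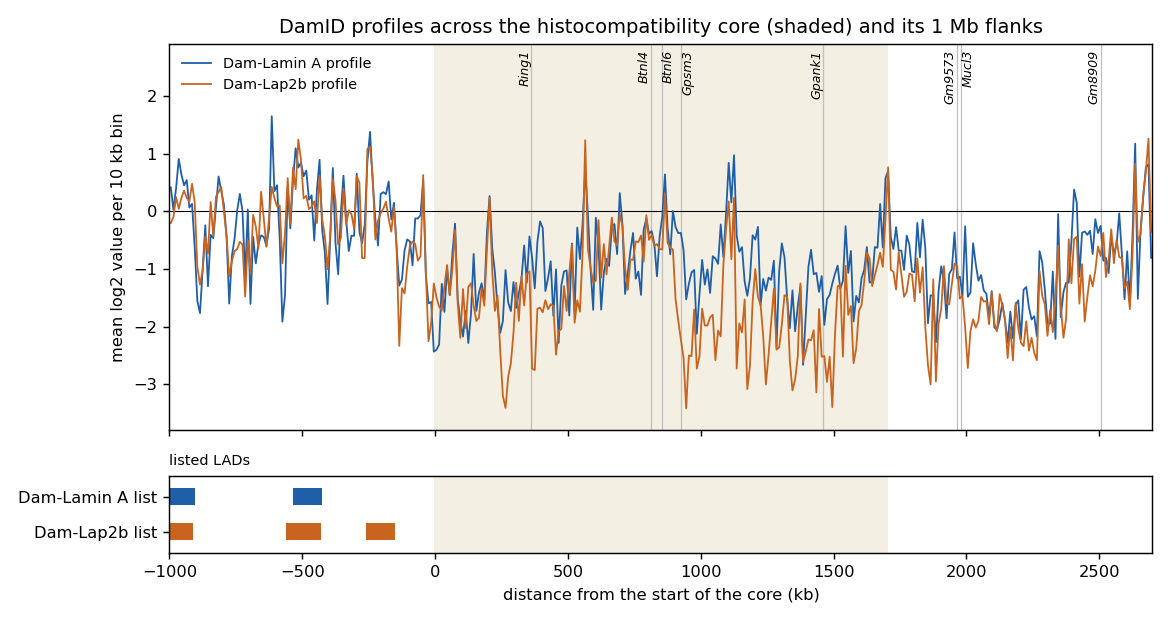
Mean log2 value of each profile in bins of 10 kb (upper panel) and the LADs of each list (lower panel) against distance from the start of the core in kb; grey lines mark the 8 genes placed by GATC spacing and the shaded area is the core. No LAD lies in the core or in the right flank, the 3 LADs of the Dam-Lap2b list and the 2 of the Dam-Lamin A list in this window lie in or reach into the left flank, and the Dam-Lap2b line drops between Btnl6 and Gpsm3.

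The profiles differed in how low they went. The Dam-Lamin A profile was the higher one in 134 of 170 bins (78.8%), against 44.2% of bins in the genome and 42.0% outside both lists. The mean difference, Dam-Lamin A minus Dam-Lap2b, was 0.56 ± 0.71 over the core, where it was −0.09 ± 0.63 over all bins and −0.10 ± 0.71 over the 109856 bins outside both lists. It exceeded 1, which is a 2-fold ratio, in 45 core bins (26.5%), against 4.15% of bins in the genome and 6.46% outside both lists. By chromosome, the share outside both lists was highest on chromosome 11, at 13.5%, and it was 9.11% on chromosome 17. The right flank went the same way with smaller values. Its mean difference was 0.37 ± 0.51, it exceeded 1 in 10 of 100 bins, and in stretches of 25 bins outwards from the core it was 0.50, 0.37, 0.44 and 0.15. The left flank had a mean difference of 0.02 ± 0.48. A difference below −1 was seen in 1 core bin, against 7.08% in the genome. Relative to all bins outside both lists, the Dam-Lamin A profile of the core had nearly the same mean (−0.99 in both), while the Dam-Lap2b profile had −1.55 in the core and −0.89 outside both lists. Over bins outside both lists, the autosomes had mean differences from −0.33 (chromosome 3) to 0.21 (chromosome 11), with 0.02 on chromosome 17. The reference drops out of this difference, since both profiles were divided by it. The most frequent values of the profiles, 0.085 and 0.022, differ by 0.062, which is a small part of the difference.

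The difference was uneven along the core. In 100 kb blocks it ran from −0.12 to 1.34, was above 0 in 13 of 17 blocks and above 0.5 in 10. In the first 200 kb it was near 0, with −0.08 ± 0.45 and −0.004 ± 0.59 (SD, 10 bins each). It was 0.80 ± 0.75, 0.75 ± 0.79 and 0.57 ± 0.59 in the next 3 blocks, which include Ring1. In the 4 blocks from 34300001 to 34700000 it was 0.18 ± 0.65, −0.01 ± 0.51, −0.12 ± 0.52 and 0.16 ± 0.35. From 34700001 to the end of the core it was 0.31 to 1.34, and the Dam-Lamin A profile was the higher one in 74 of 80 bins.

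**Figure D2:**
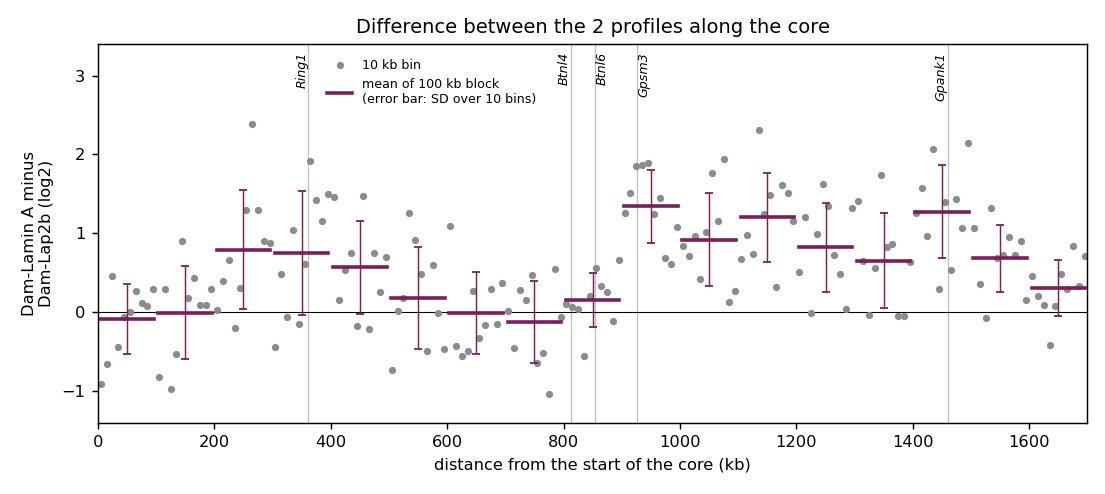
Dam-Lamin A minus Dam-Lap2b (log2) in each 10 kb bin of the core (points) and in 100 kb blocks (bars, with the SD over 10 bins) against distance from the start of the core in kb. The blocks between 500 and 900 kb lie between −0.12 and 0.18, and the next block, which holds Gpsm3, lies at 1.34 with all 10 bins above 0.

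Of the 5 intervals, that from Gpsm3 to Gpank1, which holds a part of class III, carried the largest mean difference. Over the 53 bins from Gpsm3 to Gpank1 (34726631 to 35259717), the Dam-Lamin A profile averaged −1.04 ± 0.68 and the Dam-Lap2b profile −2.02 ± 0.78, the lowest Dam-Lap2b mean of the 5 intervals. The Dam-Lamin A profile was the higher one in 49 of 53 bins, and the difference of 0.99 ± 0.60 exceeded 1 in 25 of them (47.2%). From Gpank1 to the end of the core, where Tnf, a gene for an inflammatory cytokine, and H2-D1 follow in gene order, the profiles averaged −1.01 ± 0.59 and −1.64 ± 0.83 over 24 bins, and 22 bins had the higher value in the Dam-Lamin A profile.

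The intervals from Ring1 to Btnl4, with the class II genes, and from Btnl4 to Gpsm3 were on average less depleted than the other intervals. From Ring1 to Btnl4 (34161763 to 34612917) the Dam-Lamin A profile averaged −0.82 ± 0.63 and the Dam-Lap2b profile −1.09 ± 0.78 over 45 bins. Depletion was uneven within it. In its block from 34200001 to 34300000 the profiles averaged −1.22 ± 0.54 and −1.79 ± 0.33, below their means over the core. From Btnl4 to Gpsm3 (34612918 to 34726630) they averaged −0.33 ± 0.43 and −0.84 ± 0.70 over 12 bins, the highest means of the 5 intervals in both profiles, and no bin there was below −1 in both. Before Ring1 they averaged −1.35 ± 0.63 and −1.59 ± 0.73 over 36 bins, of which 27 (75%) were below −1 in both. In the Dam-Lamin A profile the order of the intervals from low to high was thus before Ring1, Gpsm3 to Gpank1, from Gpank1 on, Ring1 to Btnl4 and Btnl4 to Gpsm3. The second and the third in that order lay 0.03 apart, and the last 2 lay 0.49 apart. With 1 library there was no replicate error by which to judge this order.

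**Figure D3:**
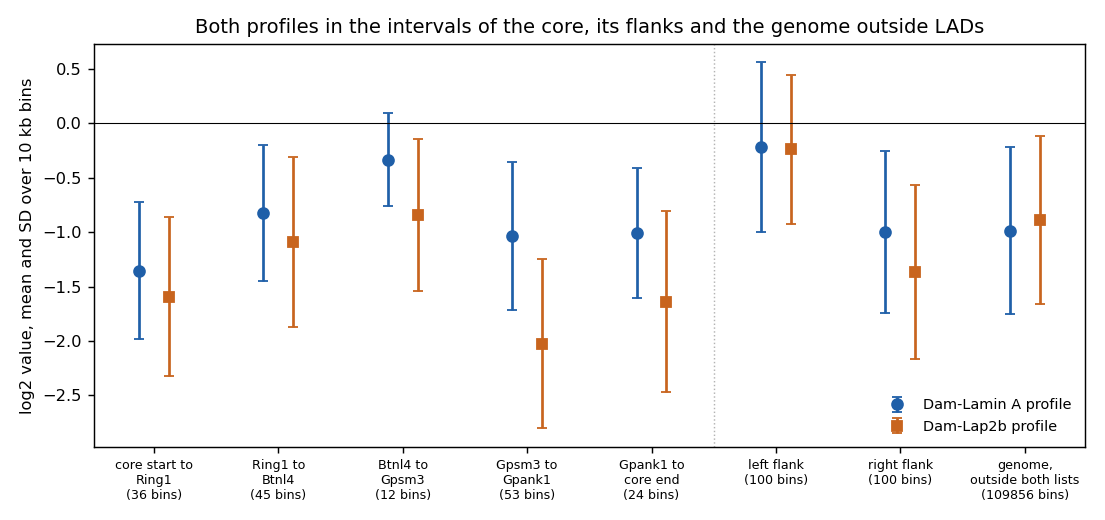
Mean and SD over 10 kb bins of both profiles (log2) in the 5 intervals of the core, in its 2 flanks and in all bins of the genome outside both lists. The Dam-Lap2b mean is lowest from Gpsm3 to Gpank1, at −2.02, and both means are highest, within the core, from Btnl4 to Gpsm3.

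The blocks from 34300001 to 34700000 are described as a shelf, chosen after their values were seen as the blocks between Ring1 and Gpsm3 with a Dam-Lap2b mean above −1. The last core block, 35400001 to 35500000, lies past Gpsm3 but also had such a mean. It averaged −0.95 ± 0.40 in the Dam-Lap2b profile and −0.64 ± 0.59 in the Dam-Lamin A profile. Over the 40 bins of the shelf the profiles nearly coincided, at −0.62 ± 0.62 (Dam-Lamin A) and −0.67 ± 0.55 (Dam-Lap2b), and the Dam-Lamin A profile was the higher one in 23 bins. Lower Dam-Lap2b values beside the shelf, and a small difference between the profiles inside it, follow in part from that choice and support nothing. The Dam-Lap2b profile averaged −1.79 ± 0.33 in the block before it and −2.36 ± 0.55 in the block after it, and the Dam-Lamin A profile, which shares its reference, averaged −1.22 ± 0.54 and −1.01 ± 0.60. Btnl4 and Btnl6 lie inside the shelf, Ring1 before it and Gpsm3 after it, so that its telomeric limit falls between Btnl6 and Gpsm3, next to Notch4 in gene order. The class II genes stand between Ring1 and Btnl4 in gene order, but which of them lie in the shelf was not determined.

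Read numbers recovered from the log2 values, which are lower bounds, showed the depth behind these values and which library varied. The core held 91591 reads of the Dam-Lamin A library, 59893 of the Dam-Lap2b library and 241559 of the reference. The median fragment had 8, 4 and 17 reads, where the median over chromosome 17 was 11, 11 and 9, so that single fragments of the Dam-Lap2b library were imprecise here. The reference had 143 reads per kb in the core and 73.3 over chromosome 17. Dam-Lamin A had 54.3 in the core and 60.7 over the chromosome, and Dam-Lap2b had 35.5 and 65.8. The low log2 values of the core thus went with a dense reference library in both profiles, and in the Dam-Lap2b profile also with fewer reads of the fusion itself. The share of fragments recovered at 0 in all 3 libraries was 3.48% in the core and 2.04% over the chromosome, and it was highest from Btnl4 to Gpsm3, at 7.58%.

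Across the 100 kb blocks the reference ranged from 48.6 to 289 reads per kb, Dam-Lamin A from 27.8 to 112 and Dam-Lap2b from 24.1 to 55.6. In the shelf the 3 libraries had 57.4, 33.7 and 32.4 reads per kb, in this order, and in the 8 blocks after it 176, 68.1 and 33.3. The last of these 8 blocks, which ends the core, was near the shelf, at 62.6, 35.6 and 30.8. From the shelf to the blocks after it, the reference and Dam-Lamin A libraries were therefore denser, and the Dam-Lap2b library was nearly the same. The shelf was chosen by its ratio of Dam-Lap2b to reference, so a reference that is sparse relative to Dam-Lap2b inside it follows in part from that choice. From Gpsm3 to Gpank1 Dam-Lamin A had 70.8 and Dam-Lap2b 34.5 reads per kb, against 36.2 and 31.1 from Ring1 to Btnl4. Over all recovered reads of an interval, log2 of Dam-Lamin A over Dam-Lap2b was 1.03 from Gpsm3 to Gpank1 and 0.95 from Gpank1 on. By that measure these 2 intervals lay close together. With reads summed in each bin instead, their mean differences were 1.17 and 0.81. The part of accessibility in the difference between the profiles was not tested.

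**Figure D4:**
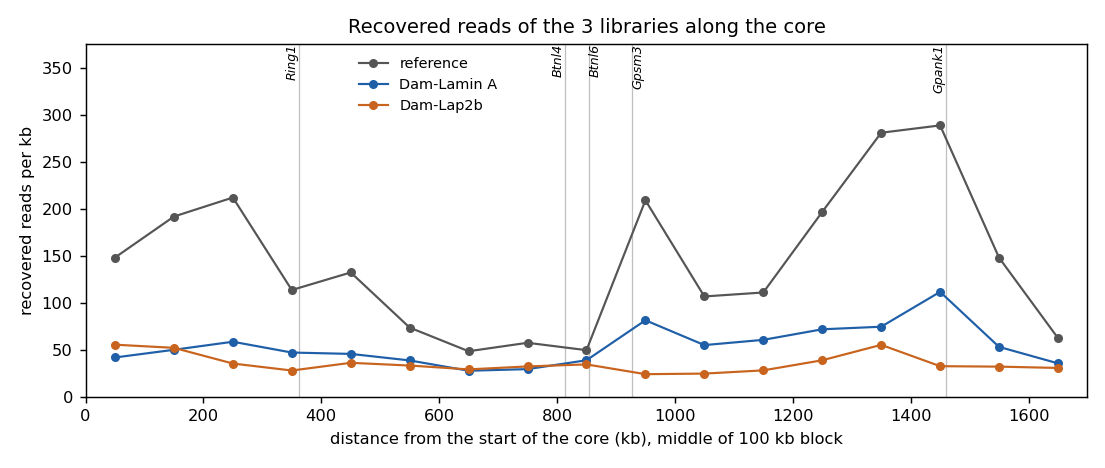
Recovered reads per kb of the reference, Dam-Lamin A and Dam-Lap2b libraries in the 17 blocks of 100 kb of the core, against distance from its start in kb. The reference falls to 48.6 and rises to 289, Dam-Lamin A follows the rise after Btnl6, and Dam-Lap2b stays between 24.1 and 55.6.

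Values around the anchored promoters come from the same fragments as the bins and blocks, so they are no separate evidence. Within 5 kb of the matched site of Ring1, 23 fragments averaged −0.38 ± 1.48 (SD over fragments) in the Dam-Lamin A profile and −2.39 ± 1.62 in the Dam-Lap2b profile, and the former was the higher one in 21. At Gpsm3, which encodes a regulator of G protein signalling, 28 fragments averaged −0.48 ± 1.73 and −1.92 ± 2.02. At Gpank1 both were low, at −2.04 ± 1.58 and −2.70 ± 1.34 over 29 fragments. At Btnl4 they averaged −0.31 ± 1.14 and −0.52 ± 0.93 over 34 fragments, and at Btnl6 −0.24 ± 1.48 and −0.79 ± 0.84 over 35. The Dam-Lap2b profile was thus higher at both butyrophilin-like genes than at the other 3 anchors of the core, while the Dam-Lamin A profile set only Gpank1 apart. Both butyrophilin-like genes lie in the shelf, which was chosen by its Dam-Lap2b values, so this follows in part from that choice. At the right flank anchors Gm9573, Mucl3 and Gm8909 the Dam-Lap2b profile averaged −0.70, −1.17 and −0.75.

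Few single bins averaged above 0. The highest core bin by the mean of both profiles, 34360001 to 34370000, was the highest in the Dam-Lap2b profile at 1.23 and had 0.74 in the Dam-Lamin A profile. It rested on 19 fragments with 616 Dam-Lamin A, 891 Dam-Lap2b and 465 reference reads, and it lies between Ring1 and Btnl4. The next 2, 34920001 to 34930000 and 34900001 to 34910000, had 0.97 and 0.84 in the Dam-Lamin A profile and 0.23 and 0.17 in the Dam-Lap2b profile. Summed reads did not bear out the first of these, which held 371 Dam-Lamin A, 442 Dam-Lap2b and 498 reference reads, so that both fusions lay below the reference and Dam-Lamin A below Dam-Lap2b. The second held 754, 628 and 420. With the bin between them they formed the only run of at least 3 bins above 0 in either profile. It spanned 30 kb between Gpsm3 and Gpank1 and was found only in the Dam-Lamin A profile, where it averaged 0.65. The Dam-Lap2b profile averaged −0.14 over it. This run was shorter than any listed LAD. It was seen in the mean of fragment values and not in summed reads, and other averagings of fragments were not searched for runs. By recovered reads the Dam-Lamin A library lay below the reference in 2 of its 3 bins, at 691 against 747 and 371 against 498, and no run of 3 bins above 0 was found in either profile from summed reads. Of the 10 core bins above 0 in the Dam-Lamin A profile 7 were also above 0 by summed reads, and of the 5 in the Dam-Lap2b profile 4.

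The lowest core bins by the mean of both profiles were 35180001 to 35190000, 34050001 to 34060000 and 35150001 to 35160000. The first had −2.66 and −2.61, with 6320 reference reads, 927 of Dam-Lamin A and 1262 of Dam-Lap2b. The second had −1.90 and −3.20, and the third −2.08 and −2.92. The largest differences stood at 34060001 to 34070000 (2.39), at 34930001 to 34940000 (2.30) and at 35290001 to 35300000 (2.14). In the first of these, 715 reads of Dam-Lamin A faced 64 of Dam-Lap2b. Differences in the other direction were smaller, and the lowest were −1.03 at 34570001 to 34580000, −0.97 at 33920001 to 33930000 and −0.91 at 33800001 to 33810000.

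The flanks were unlike each other. In the left flank the profiles averaged −0.22 ± 0.78 (Dam-Lamin A) and −0.24 ± 0.68 (Dam-Lap2b) over 100 bins, and 43 and 41 bins were above 0. LADs took 20.5% of it in the Dam-Lamin A list and 33.0% in the Dam-Lap2b list. In the right flank the profiles averaged −1.0 ± 0.74 and −1.37 ± 0.80, 7 and 5 bins were above 0, and no LAD was listed. The core thus lay 0.77 below the left flank in the Dam-Lamin A profile and 1.31 below it in the Dam-Lap2b profile. From the right flank it differed by 0.01 and −0.18, with no replicate by which to judge either value. The Dam-Lamin A profile was the higher one in 77 of 100 bins of the right flank and in 55 of 100 of the left.

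Of the LADs beside the core, those at 33264893 to 33374838 (Dam-Lamin A list) and 33236888 to 33368570 (Dam-Lap2b list) overlapped each other. The nearest to the core, 33540711 to 33650019, stood in the Dam-Lap2b list alone, and over its 11 bins the Dam-Lamin A profile averaged 0.31 ± 0.53 and the Dam-Lap2b profile 0.17 ± 0.54. There too the higher value stood in the profile of the other label. On the far side both lists began a LAD at base 36500605. Over 10 kb on either side of that base the Dam-Lamin A profile rose from −0.95 to 1.00 and the Dam-Lap2b profile from −0.39 to 0.89.

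Across the 170 core bins the profiles correlated with a Pearson's r of 0.59, where r was 0.88 over all bins and 0.57 over bins outside both lists. These are descriptions, since the bins of both profiles share the reference library and neighbouring bins are not independent. Within intervals r ran from 0.28 (Btnl4 to Gpsm3, 12 bins) to 0.75 (from Gpank1 on, 24 bins). Fragment density in the core, 2.62 per kb, was near that of chromosome 17, 2.5 per kb, and GATC occurred in 58.2% of 98 RefSeq promoter windows of listed genes of the locus, against 48.0% of all 32851 windows.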

How the data were processed

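Per the labels' protocols, DamID DNA of each fusion was amplified, ligated, sonicated and sequenced. Per the submitters' processing notes, reads were aligned with Bowtie to mm9. The counting, scaling and domain caller are not given in the sources used here. The authors deposited a log2 value per fragment between GATC sites for Dam-Lamin A and Dam-Lap2b and lists of LAD positions without scores, which are the deposited domain starts and ends. No separate file of the Dam-only sample was used, and that it is the reference was read from the values. Positions are counted from 1.

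Groups follow the labels' group tag. Log2 values were averaged over fragments whose middle lay in a bin of 10 kb with at least 5 fragments (Python 3.11.15, pandas 2.3.3, numpy 2.4.6). Reads were recovered on chromosome 17 as the smallest whole numbers that give both values of a fragment as a constant plus log2 of (fusion reads + 1)/(reference reads + 1), with denominators up to 5000. On 229576 simulated fragments of chromosome 17, 83.5% were recovered exactly and 0% came out above the true number. The search for spacings found 300 of 300 taken from the fragment map itself. It had to find them, so this count says nothing of false matches. The simulated read depth was not set to that of the core, so 83.5% is not the rate for core fragments. Addition of 1 read draws low values towards 0. With 1 sample per group no test was made. Regions were named by rule: each LAD near the core, runs of at least 3 bins above 0, and the 3 highest, lowest and most different bins. Of 99 listed gene names 96 matched RefSeq. The members and gene lists were chosen with earlier results of these data known, and the placing of genes by GATC spacing and the 5 intervals were chosen after seeing the data. Alternatives changed the bin size, the fragments used, the averaging and the limits of the core.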

Additional observations from a re-analysis of the deposited data

Results flagged for a closer look

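The core minus the right flank had opposite signs in the 2 profiles, but the Dam-Lamin A value was too small to count as a direction. The mean of the core minus that of the right flank was 0.01 in the Dam-Lamin A profile (0.00844) and −0.18 in the Dam-Lap2b profile (−0.181). The SD of the Dam-Lamin A profile over bins was 0.67 in the core and 0.74 in the right flank. The difference between the profiles was not tested, since each group had 1 sample.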

How the results depend on the processing

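Alternatives numbered 125 over 14 results, and those on the gene intervals, on shares above 0 outside both lists, on runs by summed reads and on the subtraction of each profile's most frequent value were chosen after seeing the data. None changed a direction. A minimum of 1 fragment in a bin left every core value as it was and so tested nothing. The share of core bins above 0 was the least stable value, from 4.76 to 10.9% (Dam-Lamin A, highest with bins of 5 kb) and from 1.18 to 4.71% (Dam-Lap2b). The core mean ran from −1.10 to −0.95 (Dam-Lamin A) and from −1.76 to −1.48 (Dam-Lap2b), and the difference over the core from 0.49 with the most frequent values subtracted to 0.70 with fragments weighted by length. Over the interval from Gpsm3 to Gpank1 it ran from 0.93 to 1.29. The core minus both flanks together ran from −0.49 to −0.27 (Dam-Lamin A) and from −0.88 to −0.59 (Dam-Lap2b). The core held no domain called here with 1 rule from either profile, at least 100 kb of neighbouring 10 kb bins above 0. This restates an earlier result, since the only run of at least 3 such bins in the core was 3 bins long. Joined LADs, bin middles and limits moved by 100 kb also gave 0%, but could not have given another value, since the nearest LAD lies 150 kb away. No paired analysis was possible because each group had 1 sample. The low Dam-Lap2b depth of the core limits single bins more than intervals.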
